A study of Homo sapiens with 24 samples.

Results

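Extracellular vesicles (EVs) labelled PPCL-68 were given to hTERT-HPNE cells, and their RNA was compared with that of hTERT-HPNE cells kept in fresh medium. The comparison took in every gene with a mean of at least 1 FPKM (reads scaled to gene length and to library size) over the 12 hTERT-HPNE libraries of the study. That left 11503 of 48162 genes, measured in 6 of 24 libraries. hTERT-HPNE (HPNE below) is a pancreas line made immortal with the telomerase gene, described by the submitters as normal pancreas. The cells grew in keratinocyte serum-free medium in 24-well plates and were treated for 24 h. The untreated group received fresh serum-free medium, and the vesicle group received 1e10 PPCL-68 EVs per well. Each group had 3 libraries, which the series design calls biological triplicates. Nothing in the labels says how the cultures were separated, so p-values weigh differences against the spread between libraries within groups. For this comparison that spread was estimated over all 12 hTERT-HPNE libraries. The same study treated HPNE cells with PANC-1 EVs (1e10 per well, from a pancreatic carcinoma line) and with the residual medium left when EVs had been isolated, 3 libraries each, and these are set beside the comparison. HPDE-H6c7 cells (HPDE below), an immortalised pancreatic duct epithelial line, received the same treatments. The study asks how vesicles of pancreatic cancer cells act on normal pancreas cells. What PPCL-68 is, beyond the source of the vesicles, is not stated in the labels.

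Pathways that recur below have well-known outlines. NF-kB is a family of transcription factors, held inactive by inhibitor proteins, that switches on chemokines and cytokines. In the unfolded protein response, sensors in the membrane of the endoplasmic reticulum (ER) raise chaperone genes through ATF6 and XBP1 and, through phosphorylation of eIF2alpha, raise ATF4, which drives CHOP (gene DDIT3) and genes for taking up and making amino acids; the ATF4 arm can also be switched on from outside the ER, as when amino acids run short. SREBP2 (gene SREBF2) drives the genes that make and take up cholesterol when the ER membrane holds little of it, and is held back when sterols are plentiful.

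The cells' own markers were checked first. Of 10 mesenchymal markers 9 passed the filter on low values, and the 10 summed to 14560 to 16060 FPKM in the untreated libraries and 10020 to 11450 in the PPCL-68 EV libraries. The 10 duct epithelial markers, among them EPCAM, KRT19 and KRT7, summed to 10.4 to 16.7 FPKM in untreated HPNE and to 6.95 to 9.06 with PPCL-68 EVs, against 2790 to 3034 FPKM in untreated HPDE. These cells therefore carried the marker profile of mesenchymal rather than of duct cells in both groups. The 8 acinar markers summed to at most 0.433 FPKM, the 7 islet markers to at most 0.354, the 6 immune markers to at most 1.19 and the 4 endothelial markers to at most 1.24 FPKM in these 6 libraries, and no member of those lists reached a mean of 1 FPKM.

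The libraries held 29874928 to 38213838 reads in genes, and 20271 to 21237 genes had a read. Replicates were uneven. PPCL-68 EV replicate 1 lay 2.35 times as far from the other PPCL-68 EV libraries as those lay from each other, and untreated replicate 3 lay 2.31 times as far from its pair (root mean square distance on the log2 scale). Results that rest on these libraries are given below with and without both. The closest pair, untreated replicates 1 and 2, still differed by more than counting noise, with a chi-square of 4.78 per degree of freedom over genes, so all libraries were kept as separate replicates. Residual medium replicate 3 lay 3.31 times as far from its own pair and PANC-1 EV replicate 1 2.05 times.

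Of the 11503 genes 4891 (42.5%) differed between PPCL-68 EV and untreated cells at an adjusted p under 0.05, 2151 (18.7%) higher and 2740 (23.8%) lower. Differences are between means of log2(FPKM + 1), a scale on which the change of genes with few reads looks smaller than it is. Values of 3 libraries are given in the order of replicates 1, 2 and 3. The median difference over all genes was -0.05. The excess of lower genes depended on the scaling: with median-of-ratios size factors 2563 genes were higher and 2537 lower, and the median was -0.01. A difference of at least 1 on this scale was found for 817 genes (7.1%), 364 higher (3.16%) and 453 lower (3.94%). The 3 PPCL-68 EV values all lay above the 3 untreated values for 2967 genes (25.8%) and all below them for 3500 (30.4%). Without both libraries that lay apart 5240 genes passed, 2114 higher and 3126 lower, of which 4216 were shared with the full set. Protein-coding genes made up 10558 of the genes tested and 4561 of those that passed. With so many genes called, counts of list members are read below against these shares. In RNA from a whole well, fewer cells of a type and less RNA per cell cannot be told apart.

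**Figure D1:**
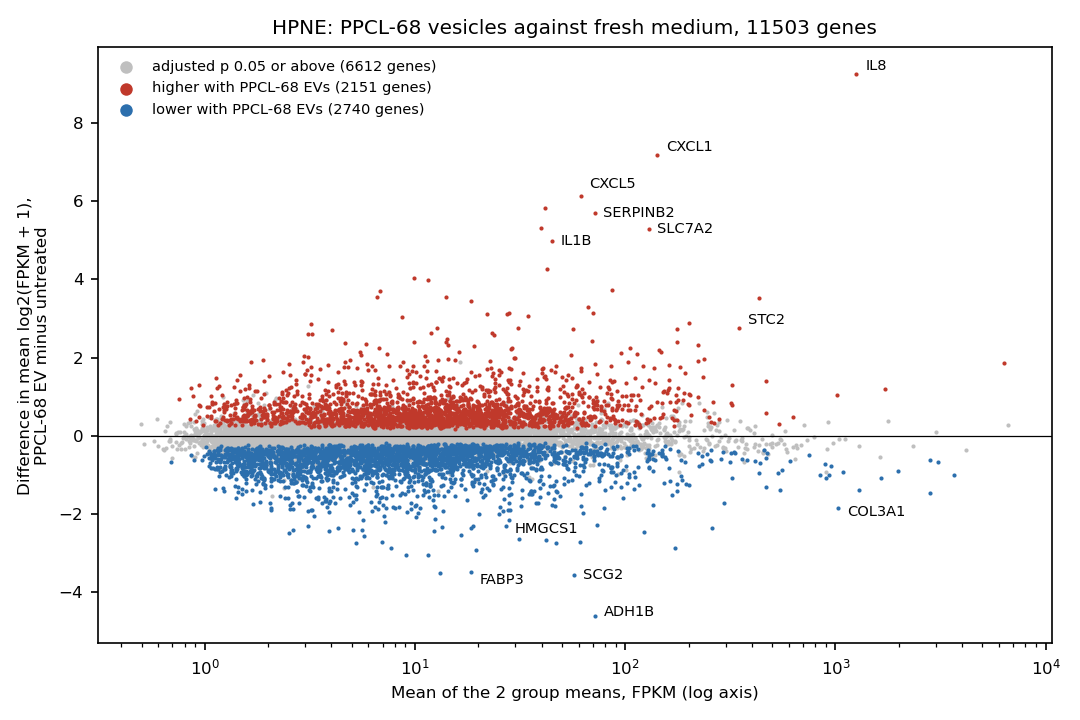
Difference in mean log2(FPKM + 1) between PPCL-68 EV and untreated HPNE cells (vertical axis) against the mean of both group means in FPKM (horizontal, log axis), 1 point per gene; red and blue points had an adjusted p under 0.05. IL8 stands at 9.26 and CXCL1 at 7.18, and the largest fall is that of ADH1B at -4.63.

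The largest rises were in chemokines and cytokines. The sequence before their starts is shown first, because 5 of them share the same letters there. The windows are the last 150 bases before the RefSeq gene start (GRCh38.p14), read 5′ to 3′ on the gene's strand, with capitals marking GGAATTTCC, the letters of an NF-kB binding site, searched on both strands. The windows are chr4:73740419-73740568 (plus strand) for IL8, named CXCL8 in RefSeq, chr4:73869243-73869392 (plus) for CXCL1, chr4:74099196-74099345 (minus) for CXCL2, chr4:74038690-74038839 (minus) for CXCL3 and chr4:73998678-73998827 (minus) for CXCL5.
IL8: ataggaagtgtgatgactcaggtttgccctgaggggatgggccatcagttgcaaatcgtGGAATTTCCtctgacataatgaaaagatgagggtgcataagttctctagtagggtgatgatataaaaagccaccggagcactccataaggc
CXCL1: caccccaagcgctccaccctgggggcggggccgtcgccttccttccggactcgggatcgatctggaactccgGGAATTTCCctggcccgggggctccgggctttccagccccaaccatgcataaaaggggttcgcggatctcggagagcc
CXCL2: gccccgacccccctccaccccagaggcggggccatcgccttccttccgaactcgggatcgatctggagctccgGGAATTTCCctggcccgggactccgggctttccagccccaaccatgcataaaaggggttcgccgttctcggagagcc
CXCL3: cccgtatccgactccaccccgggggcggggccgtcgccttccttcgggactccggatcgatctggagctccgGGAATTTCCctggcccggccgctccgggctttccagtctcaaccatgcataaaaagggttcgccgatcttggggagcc
CXCL5: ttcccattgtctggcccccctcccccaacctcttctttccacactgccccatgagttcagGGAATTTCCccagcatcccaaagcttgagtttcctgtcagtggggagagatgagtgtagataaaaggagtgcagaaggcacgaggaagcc
All 5 windows held the letters once, beginning 91 bases before the start in IL8, 90 in CXCL5, 78 in CXCL1 and CXCL3 and 77 in CXCL2. In the 250 bases before the start, they were found in 117 of 27305 RefSeq genes (0.428%) and in 38 of the 9057 tested genes that had an entry (0.42%). The windows of CXCL1, CXCL2 and CXCL3 are largely alike, so their matches are not independent. A match of letters is a description and does not show that a factor was bound.

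Each of these 5 genes codes for a secreted chemokine that attracts neutrophils. IL8 (Ensembl ENSG00000169429, hg19 chromosome 4, 74606223 to 74609433) had 2.31, 2.64 and 4.70 FPKM in the untreated libraries and 2817, 2333 and 2393 with PPCL-68 EVs. Its mean was 782 times as high, the log2 difference was 9.26 ± 0.29 (SE) and the adjusted p was 2.9e-08. CXCL1 went from 0.736, 0.785 and 0.811 to 470.1, 181 and 200.3 FPKM (7.18, adjusted p = 1.9e-07), with replicate 1 the high library of the vesicle group. CXCL5 went from 0.967, 0.553 and 0.722 to 109.9, 124 and 133 FPKM (6.14), CXCL3 from 0.394, 0.467 and 0.574 to 72.7, 83.1 and 93.2 (5.82) and CXCL2 from 1.14, 0.602 and 1.03 to 115, 61.0 and 59.4 (5.31). For all 5 the groups lay far apart, and each rise passed. CXCL1, CXCL2 and CXCL3 are close copies of each other, and how reads matching several of them were assigned is not given in the sources used here. The sixth CXC chemokine above the filter, CXCL16, had 3.27, 3.04 and 1.98 against 3.28, 1.34 and 1.75 FPKM and did not pass (-0.30), but was lower without both libraries that lay apart (-0.71, adjusted p = 0.042); CXCL6, CXCL10, CXCL11 and CXCL12 lay below the filter.

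Other NF-kB targets rose with them: 18 of 19 tested members of a list of NF-kB cytokines and inhibitors were higher and 0 lower, with a median of 2.47 against -0.05 for all genes. The count was 18 without both libraries that lay apart. IL1B, a fever-inducing cytokine, had 1.60, 1.82 and 2.02 FPKM untreated and 84.3, 85.1 and 94.4 with vesicles (4.98 ± 0.25, adjusted p = 4.7e-07). IL6 had 0.169, 0.230 and 0.411 against 42.1, 14.4 and 11.5 FPKM (4.0, adjusted p = 3.1e-05). CCL20, which attracts lymphocytes and dendritic cells, had 0.155, 0.0768 and 0.252 against 18.0, 10.2 and 11.1 FPKM (3.56). CSF2, the growth factor GM-CSF, had no read in any untreated library and 4.46, 7.95 and 6.74 FPKM with vesicles. The list's inhibitors and its effectors moved the same way. TNFAIP3, the deubiquitinase A20 that shuts the pathway down, had 5.09, 5.47 and 4.16 against 56.8, 48.8 and 44.8 FPKM (3.11), and NFKBIA, the inhibitor IkB-alpha, 32.9, 33.3 and 21.0 against 131, 74.2 and 77.8 (1.65). ICAM1, an adhesion receptor for leukocytes, rose by 3.05, SOD2, the mitochondrial superoxide dismutase, by 2.88, and PTGS2, the prostaglandin synthase COX-2, by 2.05. TNFAIP2 was the 1 tested member that did not pass (0.39). Replicate 1 was the highest of the vesicle libraries for IL6, NFKBIA and SOD2.

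**Figure D2:**
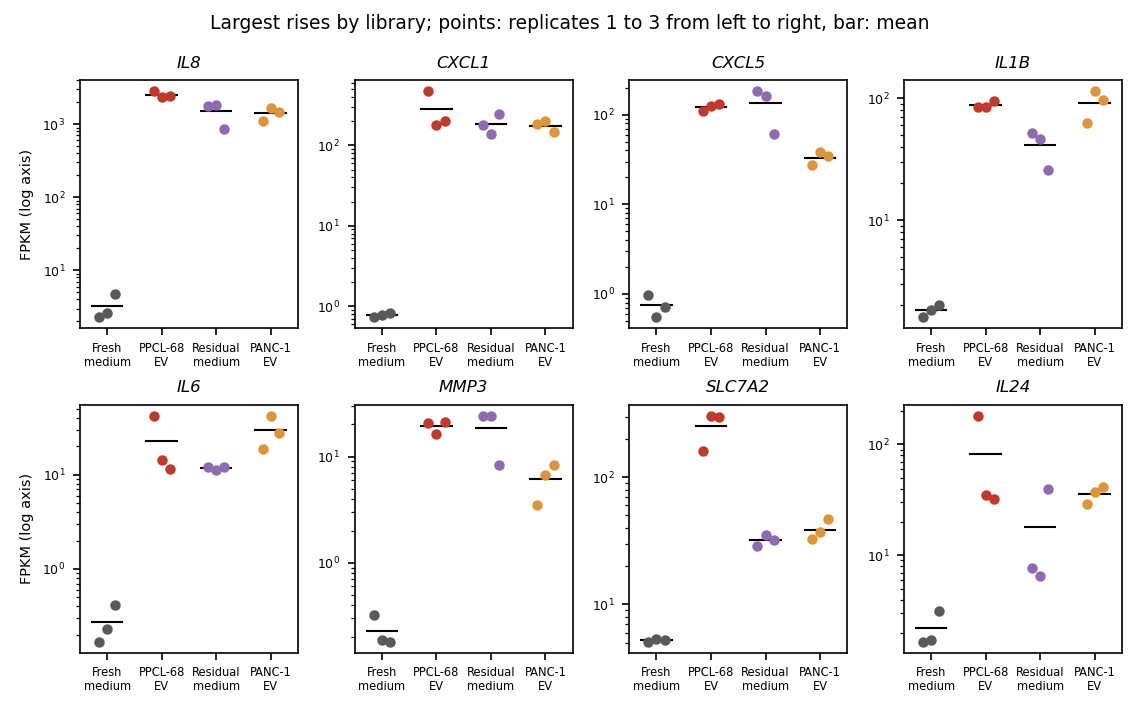
FPKM (log axis) of 8 of the largest rises in the 12 HPNE libraries, 3 per treatment, with the group mean as a bar. IL8, CXCL1, CXCL5, IL1B, IL6, MMP3 and SLC7A2 are raised in residual medium as well. SLC7A2 lies above 160 FPKM in the PPCL-68 EV libraries and below 47 FPKM in all others.

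The same chemokines were high in cells given only residual medium. Comparisons of both treatments with untreated cells share the untreated libraries, so their values are given side by side. IL8 had 1799, 1818 and 859 FPKM in residual medium (log2 difference from untreated 8.43, adjusted p = 8.2e-08), and PPCL-68 EV cells lay 0.83 above residual medium (adjusted p = 0.042; 0.47 and 0.12 without residual medium replicate 3, the low library). In that direct comparison of PPCL-68 EV with residual medium 4595 genes passed (39.9%), 2334 higher (20.3%) and 2261 lower (19.7%). CXCL1 had 177, 138 and 243 FPKM in residual medium and CXCL5 182, 163 and 61.5; neither passed in that comparison (0.50, adjusted p = 0.22, and -0.01, adjusted p = 0.99), but CXCL5 was lower with PPCL-68 EVs without residual medium replicate 3 (-0.50, adjusted p = 0.018). CXCL2 (33.6, 31.5 and 19.6 FPKM) and CXCL3 (63.5, 59.5 and 20 FPKM) were higher with PPCL-68 EVs, by 1.41 and 0.94; without residual medium replicate 3 the CXCL3 difference was 0.42 (adjusted p = 0.036). IL1B had 52.0, 46.6 and 26.0 FPKM in residual medium and was higher with PPCL-68 EVs by 1.12 (adjusted p = 0.005). IL6 had 12.2, 11.1 and 12.2 FPKM and did not pass (0.66, adjusted p = 0.20). Of the 19 NF-kB list members 17 were higher in residual medium than in untreated cells, where 5052 genes passed (43.9%; 18.7% higher and 25.2% lower), and 10 were higher with PPCL-68 EVs than in residual medium, with a median of 0.65.

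Secreted proteases and growth factors followed. SERPINB2, an inhibitor of plasminogen activators, had 0.899, 1.24 and 3.58 FPKM untreated and 109.6, 159 and 155 with PPCL-68 EVs (5.70 ± 0.42). MMP3, stromelysin 1, had 0.320, 0.190 and 0.182 against 20.8, 16.2 and 21.3 FPKM (4.05), and MMP1, the interstitial collagenase, 57.2, 54.2 and 100.1 against 839, 780.2 and 766 FPKM (3.53). All 3 lay in separate ranges in the 2 groups. The list of matrix proteases and inhibitors was split, with 5 of 16 members higher and 5 lower. Each share was 31.25%, against 18.7% and 23.8% of all genes. ADAMTS5, an aggrecan-cutting protease, fell from 12.6, 14.7 and 9.86 to 2.96, 1.53 and 1.29 FPKM (-2.22), and MMP2, gelatinase A, fell as well (-0.65). SERPINB2 had 100.3, 95.9 and 37.9 FPKM in residual medium and MMP3 24.0, 23.9 and 8.29; residual medium replicate 3 was the low library in both. Their differences between PPCL-68 EVs and residual medium did not pass (0.95, adjusted p = 0.093, and 0.18, adjusted p = 0.72).

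Of 6 tested members of the EGF receptor family and its ligands 5 rose and 1 fell. The ligand EREG had 8.88, 9.31 and 16.1 FPKM untreated and 193, 147 and 145 with PPCL-68 EVs (3.74 ± 0.25). AREG, another ligand, had 4.22, 5.22 and 4.16 against 82.6, 37.5 and 33.9 FPKM (3.13, adjusted p = 0.0038); replicate 1 held the high value, and without both libraries that lay apart the difference was 2.69 (adjusted p = 0.032). NRG1 rose by 2.07, HBEGF by 0.80 (adjusted p = 0.026, and 0.11 without untreated replicate 1) and the receptor EGFR by 1.27, whereas the receptor ERBB2 fell (-0.64). Genes downstream of ERK were mixed: 12 of 20 were higher and 4 lower. The phosphatases DUSP6 (1.09, 1.16 and 1.90 to 4.99, 9.93 and 8.90 FPKM, 1.88) and DUSP5 (1.72) and the AP-1 subunit FOSL1 (1.58) rose, while DUSP4 (-0.84) and the inhibitor SPRY1 (-1.63) fell. EGR1 had 58.5, 60.2 and 20.5 against 104, 29.5 and 31.9 FPKM, overlapping ranges. IL24, a cytokine of the IL-10 family, had 1.67, 1.74 and 3.18 against 180.4, 34.8 and 31.9 FPKM (4.26, adjusted p = 0.00069); replicate 1 was again the high library, and the difference was 3.67 (adjusted p = 0.0023) without both libraries that lay apart.

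The genes that ATF4 and CHOP drive were higher with PPCL-68 EVs. Of 21 tested 13 rose and 0 fell, with a median of 0.83 against -0.05 for all genes and shares of 18.7% and 23.8%. PPP1R15A (GADD34; hg19 chromosome 19, 49375649 to 49379314), the phosphatase subunit that reverses eIF2alpha phosphorylation, had 49.6, 48.9 and 38.6 FPKM untreated and 281, 328 and 316 with vesicles (2.73 ± 0.17, adjusted p = 2.1e-06). The transcription factor ATF3 had 2.94, 2.27 and 2.60 against 21.2, 21.8 and 20.5 FPKM (2.62 ± 0.19, adjusted p = 5.5e-06). STC2, a secreted glycoprotein, had 77.2, 76.2 and 121 against 535, 648 and 638 FPKM (2.75). The groups lay apart without overlap for all 3. CHAC1, an enzyme that breaks down glutathione, had 5.31, 4.19 and 6.59 against 20.9, 30.5 and 30.0 FPKM (2.14). GADD45A, a stress sensor of the cell cycle, rose by 2.09, CEBPG, a partner of ATF4, by 1.53, SESN2, which restrains mTORC1, by 1.40. TRIB3, which holds ATF4 and CHOP back, rose by 1.47 (adjusted p = 0.022), a call lost without both libraries that lay apart (1.02, adjusted p = 0.16) and without untreated replicate 3 alone (adjusted p = 0.075).

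The factors at the head of this arm gave smaller differences. DDIT3 had 14.3, 14.8 and 7.62 FPKM untreated and 42.0, 25.9 and 20.2 with vesicles (1.19 ± 0.34, adjusted p = 0.016). Its high vesicle value was replicate 1 and its low untreated value replicate 3, and without both the difference was 0.62 with an adjusted p of 0.15, past the threshold no longer. ATF4 itself had 262, 257 and 197 against 302, 259 and 264 FPKM and did not pass (0.21, adjusted p = 0.43). ATF4 is known to be controlled mostly at translation, which RNA levels do not report. GDF15, a stress cytokine (37.3, 35.0 and 20.9 against 64.5, 40.9 and 38.0 FPKM), and NUPR1 (173, 165 and 181 against 185, 205 and 229) did not pass either (0.61 and 0.25). Over the list, 9 members were higher and 1 lower without both libraries that lay apart, KLHL24 being the lower one (-1.06).

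Unlike the chemokines, most of these genes were not higher in residual medium. Of the 21 members 3 were higher in residual medium than in untreated cells and 8 lower, with a median of -0.42, and 19 were higher and 1 lower with PPCL-68 EVs than in residual medium, with a median of 1.47. PPP1R15A had 50.7, 54.6 and 61.1 FPKM in residual medium, 0.28 above untreated cells (adjusted p = 0.21), and PPCL-68 EV cells lay 2.46 above it (adjusted p = 1.3e-05). ATF3 had 2.76, 2.77 and 5.25 FPKM (0.31 from untreated, adjusted p = 0.20) and lay 2.31 higher with PPCL-68 EVs. TRIB3 had 13.2, 15.3 and 59.4 FPKM, lower than untreated by the test (-1.27, and -1.94 without residual medium replicate 3), with replicate 3 inside the untreated range. H1F0, a linker histone, had 59.0, 58.1 and 46.2 FPKM untreated, 49.0, 48.3 and 67.6 in residual medium and 253, 241 and 228 with PPCL-68 EVs (2.13 from untreated and 2.12 from residual medium).

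**Figure D3:**
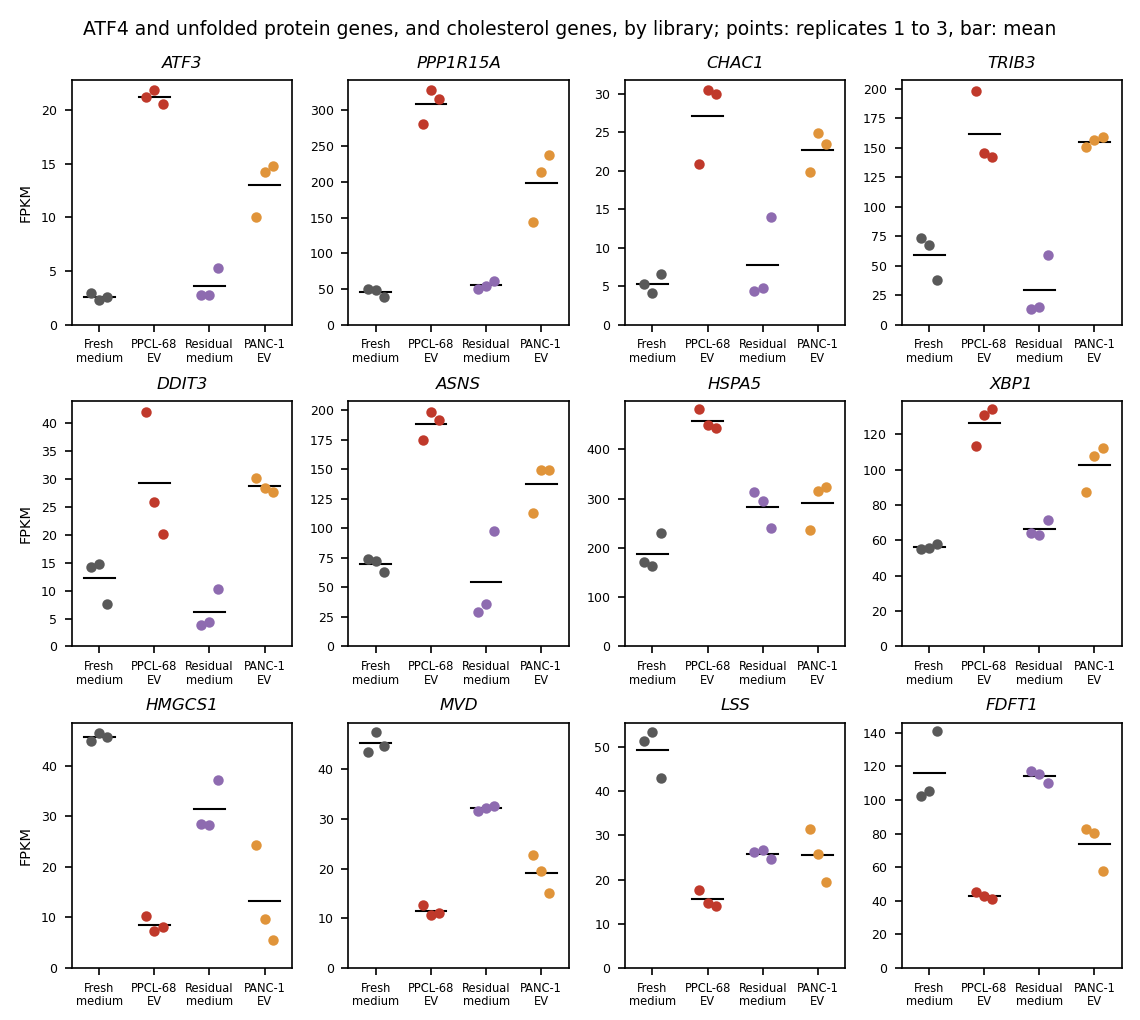
FPKM of 8 genes of the unfolded protein response and its ATF4 arm (top and middle rows) and of 4 cholesterol genes (bottom row) in the 12 HPNE libraries, with group means as bars and axes that start at 0. ATF3 and PPP1R15A rise with both kinds of vesicle and not in residual medium, and MVD and LSS are lowest in the PPCL-68 EV libraries by group mean.

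Sequence before the start of 1 of these genes is shown because it holds the known letters of an ATF4 response element. The window is the 250 bases before the RefSeq start of CHAC1 (chr15:40953221-40953470, GRCh38.p14, plus strand), with capitals marking TGATGNAA, searched on both strands and found here on the opposite strand.
CHAC1: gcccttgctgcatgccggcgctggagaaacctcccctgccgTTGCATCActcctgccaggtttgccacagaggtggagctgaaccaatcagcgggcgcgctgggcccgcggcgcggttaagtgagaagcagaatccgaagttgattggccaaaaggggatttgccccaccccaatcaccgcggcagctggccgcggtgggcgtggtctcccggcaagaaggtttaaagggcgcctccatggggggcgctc
The letters were found in such windows of 2 of the 19 list genes with an entry (10.5%), CHAC1 and ATF3, against 1.37% of the tested genes and 3.19% of all RefSeq entries. Known elements of this kind often lie outside such a window.

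Genes for amino acid supply rose in the same samples. Of 13 tested amino acid transporters 9 rose and 0 fell, with a median of 1.16; without both libraries that lay apart 11 rose. SLC7A2, a carrier of arginine and lysine, had 5.09, 5.36 and 5.22 FPKM untreated and 161, 303 and 295 with PPCL-68 EVs, a mean 48.5 times as high (5.29 ± 0.21, adjusted p = 1.2e-07). Here replicate 1 was the low vesicle library. SLC7A5, a carrier of leucine and other large amino acids, had 44.6, 45.0 and 64.5 against 191, 246 and 275 FPKM (2.19), and its heavy chain SLC3A2 97.2, 95.7 and 88.3 against 269, 297 and 302 (1.61). SLC1A4, a carrier of alanine and serine, rose by 1.77, SLC7A1 by 1.68, SLC38A2 by 1.08 and the cystine carrier SLC7A11 by 1.16 (adjusted p = 0.013; 0.051 without PPCL-68 EV replicate 3). In residual medium 2 of the 13 were higher than in untreated cells, SLC7A1 (0.90) and SLC7A2 (2.40), and 5 lower, among them SLC7A11 (-1.52). PPCL-68 EV cells were above residual medium for 12 of 13; SLC7A1 lost that call without residual medium replicate 3 (0.69, adjusted p = 0.062).

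Of 16 tested genes of serine, asparagine and proline synthesis 10 rose and 2 fell (median 0.63). GOT1, the cytosolic aspartate aminotransferase, had 21.9, 19.6 and 20.4 against 68.3, 79.3 and 72.6 FPKM (1.78 ± 0.20), MTHFD2 of mitochondrial folate metabolism 18.6, 18.0 and 18.3 against 56.1, 66.3 and 66.6 (1.72), and ASNS, asparagine synthetase, 73.7, 71.9 and 63.4 against 174, 199 and 192 (1.42). All 3 were without overlap between groups. The 2 that fell were SHMT1 (-0.72), the cytosolic serine hydroxymethyltransferase, and ALDH18A1 (-0.55), which makes the precursor of proline. Without both libraries that lay apart SHMT1 no longer passed (-0.47, adjusted p = 0.16). PHGDH, the first enzyme of serine synthesis, did not pass (0.30). Among enzymes that load tRNAs with amino acids, the counts were unequal. Of 20 cytosolic synthetases 12 rose and 2 fell (median 0.47). Of 16 mitochondrial ones 3 rose (18.75%) and 2 fell (12.5%), against 18.7% and 23.8% of all genes (median -0.02). Without PPCL-68 EV replicate 2, 1 of the 16 rose. YARS had 59.4, 54.9 and 51.2 against 104, 103 and 102 FPKM (0.89), GARS 122, 119.9 and 129 against 192, 240.0 and 245 (0.86) and MARS 56.2, 56.1 and 56.2 against 97.1, 95.3 and 96.8 (0.77). QARS went the other way, from 50.4, 49.3 and 46.1 to 28.3, 17.7 and 18.5 FPKM (-1.17, adjusted p = 0.00056).

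ER chaperones moved less than the ATF4 arm. Of 20 chaperones and folding enzymes 6 rose and 0 fell, with a median of 0.14, and 8 rose without both libraries that lay apart. HSPA5 (BiP), the main ER chaperone, had 172, 163 and 231 FPKM untreated and 481, 450.0 and 444 with PPCL-68 EVs (1.29 ± 0.16, adjusted p = 0.00015). HYOU1, which exchanges the nucleotide of BiP, had 22.4, 22.8 and 31.8 against 56.3, 60.1 and 60.0 FPKM (1.18), and XBP1 55.0, 55.7 and 57.9 against 114, 131 and 135 (1.15, adjusted p = 2.2e-05). In all 3 the groups did not overlap. DNAJB9 (0.64), DNAJC3 (0.45) and CANX (0.33; adjusted p = 0.079 without untreated replicate 2) were the others that rose. CALR (321, 317 and 599.5 against 303, 347 and 362 FPKM), PDIA4, CRELD2 and SDF2L1 did not pass (-0.23, 0.07, -0.17 and 0.18). XBP1 acts through splicing of its RNA, which FPKM of the whole gene does not show.

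The window before HSPA5 is shown because it holds the letters of an ER stress response element (chr9:125241344-125241593, GRCh38.p14, minus strand). Capitals mark CCAAT, 9 further bases and CCACG, searched on both strands, and inexact copies are not marked.
HSPA5: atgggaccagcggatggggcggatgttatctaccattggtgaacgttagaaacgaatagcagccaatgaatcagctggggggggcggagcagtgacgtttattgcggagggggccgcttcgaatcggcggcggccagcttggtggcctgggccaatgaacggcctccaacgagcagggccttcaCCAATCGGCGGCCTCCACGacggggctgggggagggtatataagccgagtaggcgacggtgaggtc
The match began 66 bases before the start. Such letters lay in 6 of the 19 list genes with an entry (31.6%), HSPA5, HSP90B1, CALR, CANX, CRELD2 and XBP1, against 0.155% of tested genes. Of these 6, HSPA5, XBP1 and CANX rose, and HSP90B1 (0.47), CALR and CRELD2 did not pass; HSP90B1 passed without both libraries that lay apart (0.67, adjusted p = 0.012).

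Genes of ER-associated degradation and of transport into the ER rose in 10 of 19 cases and fell in 1 (median 0.32). HERPUD1, which helps to take misfolded proteins out of the ER, had 68.8, 62.9 and 68.5 against 133, 139 and 135 FPKM (1.02 ± 0.16). SSR3 (0.85), SEC63 (0.77) and SEL1L (0.62) rose as well, and OS9 fell (-0.43; adjusted p = 0.054 without PPCL-68 EV replicate 3). In residual medium 12 of the 20 chaperones were higher than in untreated cells and 0 lower (median 0.46). PPCL-68 EV cells were above residual medium for 4 of the 20 and below it for 6, against 20.3% and 19.7% of all genes. Without residual medium replicate 3 these counts were 3 and 10. HSPA5 had 313, 295 and 241 FPKM in residual medium (0.59 from untreated) and lay 0.70 higher with PPCL-68 EVs (adjusted p = 0.0065). HERPUD1 lay 0.88 above residual medium, XBP1 0.92 and DDIT3 2.12. Of chaperones of the cytosol 2 of 16 rose (12.5%) and 4 fell (25%), against 18.7% and 23.8% of all genes. HSPB1 (HSP27) fell from 255, 254 and 236 to 116, 116 and 130.4 FPKM (-1.03), and HSPA1A (-0.69) and HSPA1B (-0.52) had adjusted p-values of 0.086 and 0.064 without both libraries that lay apart. The latter pair are near-identical copies.

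Cholesterol genes were lower with PPCL-68 EVs. Of 22 tested genes of synthesis and uptake 20 fell and 0 rose, with a median of -1.30; the count was 20 without both libraries that lay apart. HMGCS1 (hg19 chromosome 5, 43289497 to 43313614), which makes HMG-CoA, had 44.8, 46.4 and 45.7 FPKM untreated and 10.2, 7.25 and 8.14 with vesicles (-2.30 ± 0.36, adjusted p = 0.00057). MVD, which makes isopentenyl diphosphate, had 43.6, 47.5 and 44.7 against 12.7, 10.7 and 11 FPKM (-1.90), and LSS, which closes the sterol rings, 51.4, 53.5 and 43.0 against 17.8, 14.8 and 14.1 (-1.60). No vesicle value reached an untreated one in these genes. FDFT1, squalene synthase (102, 106 and 141 against 45.4, 42.9 and 41.0 FPKM, -1.40), SQLE (-1.19), DHCR7 (-1.30) and SREBF2 (-0.65) fell too. The 2 that did not pass were INSIG1 (136, 137 and 92.5 against 90.1, 48.8 and 50.6 FPKM, -0.97) and PMVK (-0.41); INSIG1 passed without both libraries that lay apart (-1.44, adjusted p = 0.037). ACAT2, which makes the acetoacetyl-CoA used for the pathway and is not on the list, fell from 12.2, 13.9 and 19.5 to 2.84, 3.31 and 3.26 FPKM (-1.95).

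Of the 22 genes 5 were lower in residual medium than in untreated cells and 0 higher (median -0.17). That count is near the share of all genes lower there (25.2%). PPCL-68 EV cells were below residual medium for 17 (median -1.14), against 19.7% of all genes. HMGCS1 had 28.6, 28.2 and 37.3 FPKM in residual medium, a difference from untreated that did not pass (-0.54, adjusted p = 0.24), and the difference of PPCL-68 EVs from it was -1.76 (adjusted p = 0.0034). MVD had 31.6, 32.3 and 32.7 FPKM there and differed by -1.42, and ACAT2 19.6, 19.1 and 14.3 FPKM and -2.17. The letters TCACNCCAC of a sterol response element were found in the windows of 1 of the 17 list genes with an entry, SREBF2 (5.88%), against 0.828% of tested genes. Of 8 genes on a list of LXR factors, LXR targets and cholesterol export 3 were lower (median -0.89). LPCAT3 fell least of these (-0.37) and lost its call with size factors (-0.32, adjusted p = 0.0565). It also lost it with no filter (adjusted p = 0.07) and in a fit of only the groups compared (adjusted p = 0.0663). Leaving out untreated replicate 1 or 2 or PPCL-68 EV replicate 2 or 3 lost it as well (adjusted p from 0.0669 to 0.135). APOE fell from 904, 884 and 589 to 312, 269 and 311 FPKM (-1.39), and NR1H3, LXR-alpha itself, from 13.9, 14.1 and 8.28 to 3.28, 1.25 and 1.98 (-2.06). Replicate 3 was the low untreated library in both. The exporter ABCA1 had 56.6, 56.9 and 28.9 against 33.1, 16.7 and 17.0 FPKM, overlapping ranges (-1.07, adjusted p = 0.096), with untreated replicate 3 low and PPCL-68 EV replicate 1 high. Without both libraries 6 of the 8 were lower, ABCA1 among them (-1.69), and 5 without untreated replicate 3 alone. APOE had 243, 223 and 267 FPKM in residual medium, and its difference between PPCL-68 EVs and residual medium did not pass (0.28, adjusted p = 0.19).

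**Figure D4:**
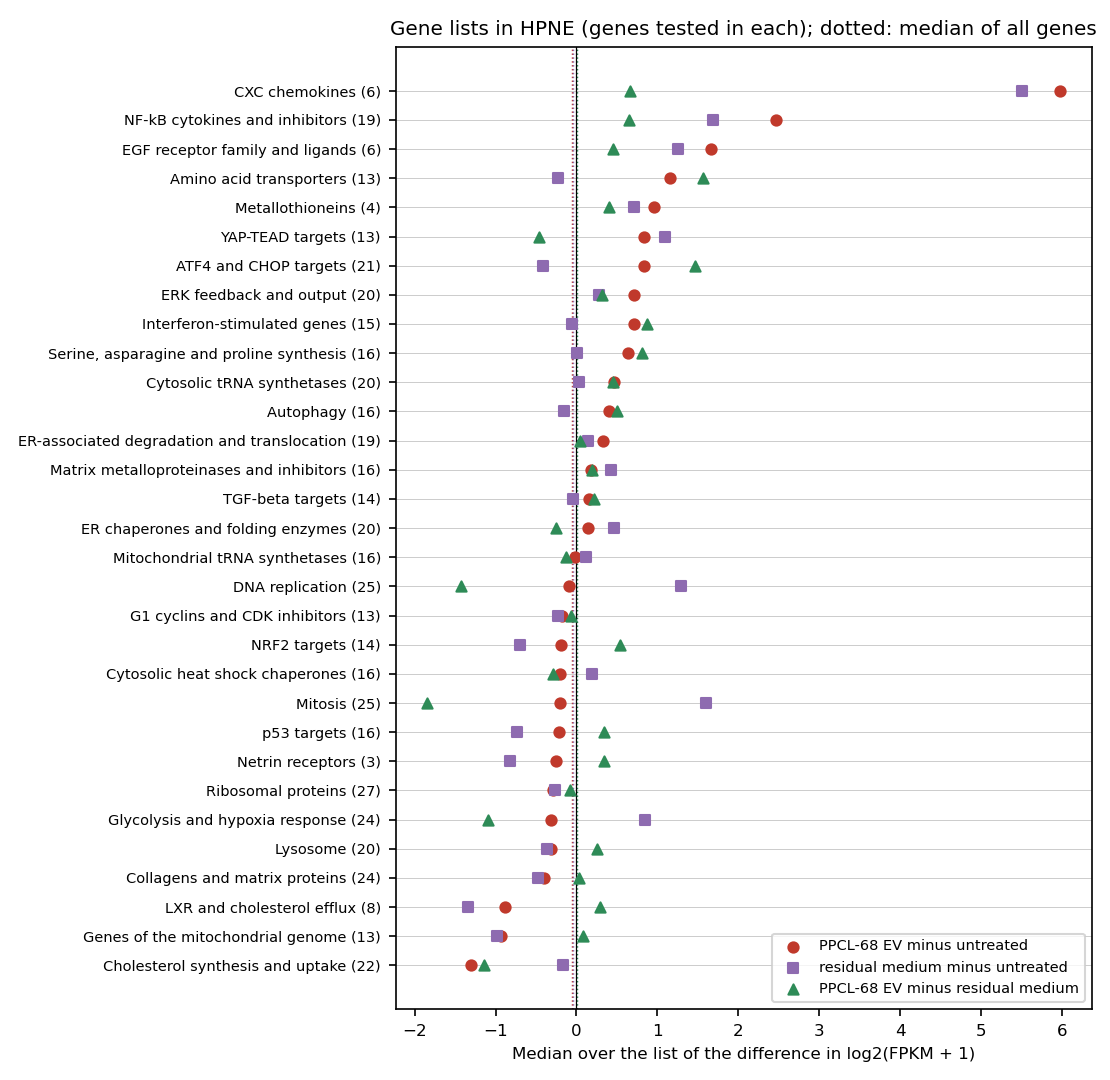
Median log2 difference of each of the 31 gene lists (rows, with the number of genes tested) for PPCL-68 EV against untreated, residual medium against untreated and PPCL-68 EV against residual medium; the comparisons share libraries, and dotted lines are the medians of all genes. The ATF4 list and the amino acid transporters lie above 0 for PPCL-68 EVs and below 0 for residual medium against untreated, the CXC chemokines stand at 5.98 and 5.51 against untreated, and mitosis and DNA replication are raised in residual medium.

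The largest falls were in genes of other kinds. ADH1B, an alcohol dehydrogenase, had 149.9, 146 and 112 FPKM untreated and 20.2, 1.72 and 1.87 with PPCL-68 EVs (-4.63 ± 0.94, adjusted p = 0.0026); replicate 1 was the high vesicle library, and the difference was -5.73 without both libraries that lay apart. SCG2, a secretory granule protein, had 122, 116 and 80.1 against 8.01, 7.52 and 7.88 FPKM (-3.58, adjusted p = 1.8e-06). OSR2, a zinc finger factor, had 33.4, 31.6 and 10.5 against 2.49, 0.473 and 0.654 FPKM (-3.52), and FABP3, a fatty acid binding protein, 42.8, 50.2 and 12.3 against 2.61, 1.43 and 1.40 (-3.49). Untreated replicate 3 was the low untreated library in OSR2 and FABP3, still above every vesicle value. SNAI1, a repressor of epithelial genes, had 20.4, 23.1 and 7.70 against 1.93, 0.675 and 0.551 FPKM (-3.06, adjusted p = 0.00062). JUP, plakoglobin of cell junctions, had 11, 13.2 and 18.5 against 1.80, 0.526 and 0.962 FPKM (-2.88), ANGPTL2, a secreted angiopoietin-like protein, 38.9, 35.1 and 31.2 against 3.59, 3.48 and 4.10 (-2.93), and TNFRSF21, death receptor 6, 104, 105 and 110.0 against 17.1, 12.5 and 16.2 (-2.73). TMEM119 (-2.75, adjusted p = 0.0098) and ARHGAP20 (-2.74) fell too.

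Many of these falls were present in residual medium too. ADH1B had 0.400, 0.386 and 14 FPKM there, SCG2 5.08, 4.83 and 7.90, OSR2 0.596, 0.378 and 2.85, FABP3 2.44, 1.75 and 2.54 and SNAI1 0.608, 0.824 and 2.58, each lower than untreated (-5.46, -3.95, -3.52, -3.27 and -2.91). PPCL-68 EV and residual medium gave no difference past the threshold for these 5, with adjusted p-values of 0.51, 0.20, 1.00, 0.74 and 0.82, which does not show them equal. RGS4, a regulator of G protein signalling, differed from both controls: 16.2, 15.4 and 32.5 FPKM untreated, 25.4, 24.5 and 5.58 in residual medium and 1.46, 1.60 and 1.55 with PPCL-68 EVs (-3.06 from untreated and -2.69 from residual medium, adjusted p = 0.0012). SFRP1, a secreted inhibitor of Wnt, had 27.7, 27.5 and 113 FPKM untreated, 47.2, 48.4 and 13.8 in residual medium and 4.15, 7.47 and 7.92 with PPCL-68 EVs (-2.64 and -2.17). Its single high untreated library was replicate 3, and without both libraries that lay apart the fall from untreated was -1.72 (adjusted p = 0.043). ARHGDIB was lower than in untreated cells (-1.60) and than in residual medium (-1.92).

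Matrix genes, several of which are among the mesenchymal markers summed above, fell in part. Of 24 collagens and matrix proteins 8 fell (33.3%) and 3 rose (12.5%), against 23.8% and 18.7% of all genes (median -0.40). COL1A1 had 4337, 4277 and 3731 FPKM untreated and 1590.0, 1411 and 1488 with vesicles (-1.46), COL3A1 1889, 1786 and 1122 against 722, 328 and 336 (-1.85) and LUM, the proteoglycan lumican, 222, 219 and 182 against 86.0, 47.3 and 53.1 (-1.77). In all 3 the groups did not overlap. TNC, tenascin C, rose, from 0.558, 0.547 and 7.65 to 11.3, 48.8 and 42.3 FPKM (3.44, adjusted p = 0.0064), with untreated replicate 3 and PPCL-68 EV replicate 1 nearest to each other. FN1, fibronectin, did not pass (0.27). Residual medium lowered COL1A1 and COL3A1 as well (-0.82 and -1.36). The mesenchymal marker sum was lower in the same libraries. It includes COL1A1 and COL3A1, so it is not separate from these falls, and what lowered it was not tested. The far lower duct epithelial sum was also lower with PPCL-68 EVs, and the acinar, islet, immune and endothelial sums stayed at or under 1.24 FPKM. Of 14 TGF-beta targets 5 rose (35.7%) and 3 fell (21.4%), the latter near the 23.8% of all genes. INHBA (40.9, 42.4 and 90.8 to 237, 314 and 332 FPKM, 2.41) rose, and ID1 (20.1, 18.1 and 10.4 to 5.21, 3.12 and 3.56 FPKM, -1.77) fell. Of 13 YAP targets 7 rose and 1 fell, CYR61 going from 61.0, 62.1 and 156 to 163, 436 and 454 FPKM (1.91), and without both libraries that lay apart 11 rose. That count was 3 when any 1 of untreated replicates 1 and 2 and PPCL-68 EV replicates 2 and 3 was left out.

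Genes of mitosis and of DNA replication did not differ from untreated cells as groups. Of 25 mitosis genes 0 rose and 1 fell (KIF20A, -1.20, but -0.70 with an adjusted p of 0.25 without both libraries that lay apart), and of 25 replication genes 0 rose and 0 fell. These values depended on both libraries that lay apart. By its median level per library, the mitosis list stood at 3.51, 3.72 and 8.39 FPKM in the untreated libraries and at 2.67, 4.88 and 4.45 with PPCL-68 EVs, high in untreated replicate 3 and low in PPCL-68 EV replicate 1. The median difference was -0.21 with all libraries and 0.34 without both, and for replication -0.09 and 0.33, with no member past the threshold without them. The proliferation marker MKI67 had 1.85, 1.96 and 6.78 against 1.01, 2.83 and 2.73 FPKM. In residual medium the mitosis list stood at 27.1, 27.2 and 6.68 FPKM, and 25 of 25 mitosis and 23 of 25 replication genes were higher than untreated. All 25 of each list were lower with PPCL-68 EVs than in residual medium (medians -1.84 and -1.43), and all 25 were so without residual medium replicate 3, the library with the lowest level. Of 13 G1 regulators 1 rose and 5 fell, or 3 without any 1 PPCL-68 EV library. CDK6 rose (0.70), and the inhibitors CDKN2B (13.9, 14.3 and 18.9 to 5.75, 4.05 and 4.27 FPKM, -1.55), CDKN2A (-1.29) and CDKN2C (-1.17) fell.

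Glycolysis and hypoxia genes were also higher in residual medium than with PPCL-68 EVs. Against untreated cells 5 of 24 rose (20.8%, near the 18.7% of all genes) and 8 fell (33.3%, against 23.8%), with a median of -0.31. SLC2A3, a glucose transporter, rose from 18.5, 15.5 and 20.8 to 53.4, 68.4 and 65.1 FPKM (1.72). PFKL, a phosphofructokinase subunit, fell from 55.6, 55.9 and 43.9 to 25.3, 15.8 and 14.9 (-1.46). The number that fell was 15 without PPCL-68 EV replicate 1, 4 without PPCL-68 EV replicate 2 or untreated replicate 2, and 5 without PPCL-68 EV replicate 3 or untreated replicate 1; 3 rose without untreated replicate 1 or 2. In residual medium 19 of the 24 were higher than untreated and 0 lower, and with PPCL-68 EVs 19 were below residual medium and 1 above. LDHA had 339, 334 and 289.5 FPKM untreated, 800.2, 778 and 787 in residual medium and 349.5, 221 and 222 with PPCL-68 EVs (-0.31 from untreated, not past the threshold, but -0.60 and past it without both libraries that lay apart, and -1.61 from residual medium).

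Transcripts of the mitochondrial genome were lower in 10 of 13 cases (median -0.94), with MT-CO1 at 5483, 6636 and 2791 against 2582, 2185 and 2189 FPKM (-1.01). Untreated replicate 3 lay nearest to the vesicle libraries. The count of 10 was 0 without untreated replicate 1 or 2 and 1 without PPCL-68 EV replicate 2 or 3. With size factors it was 7. Without untreated replicate 2 the adjusted p of MT-CO1 was 0.11, up from 0.026, and without both libraries that lay apart 12 of 13 fell. Ribosomal protein genes were lower in 7 of 27 cases (median -0.29), a share of 25.9% near the 23.8% of all genes. The count was 23 without both libraries that lay apart and 19 without PPCL-68 EV replicate 1 alone. It was 3 without any 1 of the libraries that lay close together. RPL15 had 402, 398 and 348 against 317, 209.5 and 208 FPKM (-0.67), PPCL-68 EV replicate 1 being the high vesicle library. In residual medium the medians of these lists against untreated were -0.98 and -0.26.

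Smaller programs split between members, except that the autophagy genes past the threshold with all libraries all rose. Of 15 interferon-stimulated genes 10 rose and 2 fell (median 0.72), with 6 rising without PPCL-68 EV replicate 2. IRF7, a factor that amplifies the response, had 2.82, 3.58 and 2.02 against 7.01, 9.01 and 8.90 FPKM (1.30), and IFI6 34.0, 34.0 and 30.8 against 55.3, 98.3 and 99.4 (1.28, adjusted p = 0.025, and 0.088 without PPCL-68 EV replicate 3). IFIT1 went from 17.1, 17.0 and 16.3 to 1.59, 5.19 and 3.65 FPKM (-2.08) and IFIT2 from 12.7, 12.3 and 7.74 to 3.94, 2.58 and 2.44 (-1.57). These 2 binders of foreign RNA were also low in residual medium (-1.93 and -2.18). Autophagy genes rose in 10 of 16 cases and fell in 0 (median 0.41), or in 7 and 2 without both libraries that lay apart; the receptor SQSTM1 (p62) had 199, 199 and 164 against 343, 317 and 355 FPKM (0.86) and MAP1LC3B (LC3) 55.8, 55.3 and 42.4 against 82.6, 103 and 99.2 (0.88). Lysosome genes fell in 8 of 20 cases, as with NPC2 (126, 124 and 123 against 58.3, 50.2 and 55.4 FPKM, -1.18), while NPC1, its partner in cholesterol export from lysosomes, rose (8.11, 8.09 and 9.18 against 21.0, 25.3 and 23.3 FPKM, 1.35).

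Of 14 NRF2 targets 5 rose, or 3 without PPCL-68 EV replicate 3, and 4 fell. With all libraries these shares were 35.7% and 28.6%, against 18.7% and 23.8% of all genes. Thioredoxin reductase TXNRD1 had 97.3, 96.8 and 97.2 against 172, 246 and 245 FPKM (1.16) and ferritin heavy chain FTH1 rose by 1.03, whereas transketolase TKT fell (-1.08). HMOX1, heme oxygenase 1, had 159.6, 159.6 and 168 against 84.2, 206 and 342 FPKM and did not pass (0.16). Of 16 p53 targets 2 rose, PLK3 and the death receptor TNFRSF10B (0.86), and 6 fell, among them TP53INP1 (20.4, 19.7 and 13.7 to 6.06, 5.5 and 4.50 FPKM, -1.56). CDKN1A (p21) had 308, 303 and 253 against 286, 279 and 274 FPKM (-0.04). Of 4 genes that bind or export zinc and other metals 3 rose, MT1E (1.5), MT2A (857, 939.8 and 1386 to 2158, 2503 and 2521 FPKM, 1.20) and MT1M (0.72). Of the 3 netrin genes tested NTN4 fell (-0.58, adjusted p 0.14 without both libraries that lay apart), and the receptor UNC5B had 76.5, 72.4 and 53.3 against 91.8, 84.5 and 87.8 FPKM (0.40, not past the threshold). In residual medium UNC5B had 4.30, 5.02 and 23.0 FPKM, and the difference of PPCL-68 EVs from it was 3.28.

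Vesicles from PPCL-68 and from PANC-1 cells were compared directly, which asks whether the vesicle source changes the response. They differed in 629 genes (5.47%), 259 higher with PPCL-68 EVs (2.25%) and 370 lower (3.22%), and this count depends on single libraries, from 135 without PPCL-68 EV replicate 2 to 916 without PPCL-68 EV replicate 1. SLC7A2 was highest by difference: 32.4, 37.0 and 46.6 FPKM with PANC-1 EVs against 161, 303 and 295 with PPCL-68 EVs (2.64 ± 0.21, adjusted p = 0.00067). CXCL5 had 27.3, 38.1 and 34.2 FPKM with PANC-1 EVs (1.86 higher with PPCL-68 EVs, adjusted p = 0.011), MMP3 3.53, 6.68 and 8.33 (1.56, adjusted p = 0.029) and C15orf48, a protein of the mitochondrial respiratory chain, 2.23, 3.91 and 4.02 against 15.3, 14 and 11.4 (1.75, adjusted p = 0.0057). On the lower side NPTX1, neuronal pentraxin 1, had 122, 220.2 and 152 FPKM with PANC-1 EVs and 22.4, 43.7 and 55.3 with PPCL-68 EVs (-2.05, adjusted p = 0.013). RGS4 (-1.98), FAM20C, a secretory pathway kinase (-1.93), and SFRP1 (-2.38) were lower as well. PANC-1 EVs against untreated cells gave 2430 genes past the threshold (21.1%), 9.61% higher and 11.5% lower.

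The ATF4 and NF-kB lists are read against 5.47% of all genes called between the vesicle sources. Of the 21 ATF4 and CHOP targets 1 was higher with PPCL-68 EVs, PPP1R15A (0.66, adjusted p = 0.049), and none was lower; ATF3 had 10, 14.2 and 14.8 FPKM with PANC-1 EVs (0.68, adjusted p = 0.063). Of the NF-kB list 0 were higher and 2 lower, NFKB1 (-0.45) and PTGS2 (-0.62). Of the cholesterol genes 10 of 22 were lower with PPCL-68 EVs and 0 higher (median -0.49). By its median level per library the list stood at 30.23, 21.79 and 15.52 FPKM with PANC-1 EVs and at 16.75, 14.09 and 13.99 with PPCL-68 EVs. PANC-1 EV replicate 3 thus lay inside the PPCL-68 EV range, and replicate 1, which lay apart, was the highest. DHCR7 had 52.4, 53.7 and 43.0 FPKM with PANC-1 EVs (-0.93, adjusted p = 0.0052) and MVD 22.7, 19.4 and 15.1 (-0.68, adjusted p = 0.013). HMGCS1 had 24.3, 9.70 and 5.55 FPKM there, a wide range, and did not pass (-0.36). HSPA5 was higher with PPCL-68 EVs (0.66, adjusted p = 0.04; 236, 316 and 323 FPKM with PANC-1 EVs).

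The same vesicles gave another response in HPDE cells. The change against untreated differed between the lines for 4029 of the 10483 genes tested in both (38.4%), 1971 of them more positive in HPNE (18.8%) and 2058 more negative (19.6%). IL8 had 31.2, 36.5 and 37.3 FPKM in untreated HPDE and 192, 167 and 161 with PPCL-68 EVs, a difference of 2.28 against 9.26 in HPNE (difference between lines 6.98 ± 0.32, adjusted p = 2.2e-11). Untreated HPDE started at a higher IL8 level and ended at a lower one. CXCL1 changed by 1.30 in HPDE, IL1B by 0.81 and SLC7A2 by 0.31 (7.89, 6.55 and 6.84 to 8.58, 8.87 and 9.65 FPKM), and the differences between lines were 5.88, 4.18 and 4.98. SNAI1 (0.72 in HPDE), OSR2 (-0.33), FABP3 (-0.54) and JUP (0.03) were more negative in HPNE, with differences between lines of -3.79, -3.19, -2.95 and -2.91.

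**Figure D5:**
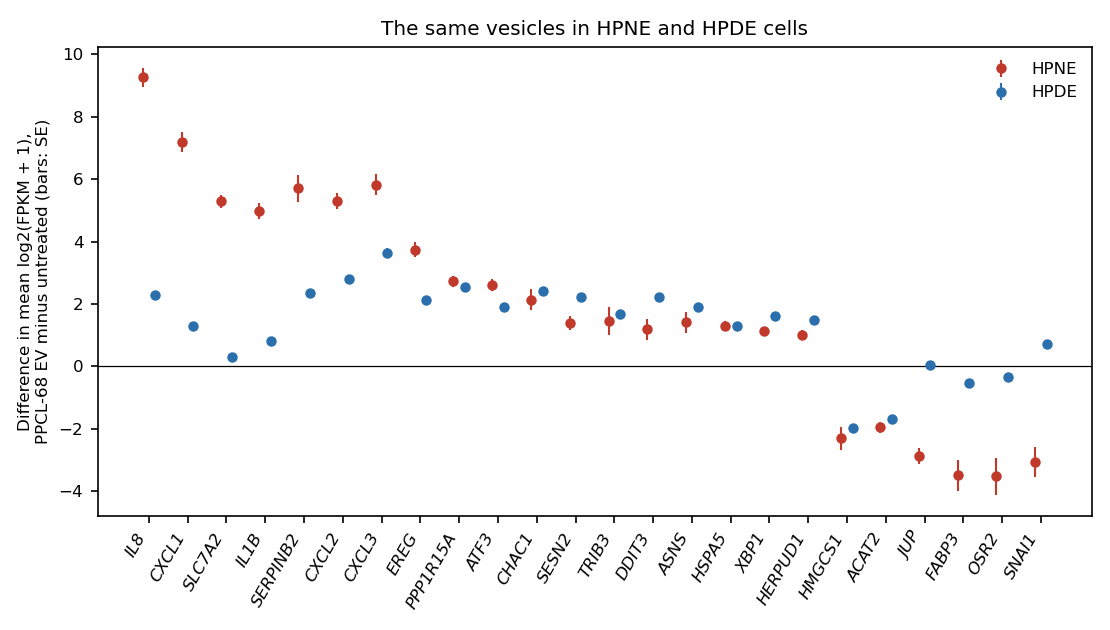
Difference in mean log2(FPKM + 1) between PPCL-68 EV and untreated cells, with its standard error, for 24 genes in HPNE (red) and HPDE (blue). IL8, CXCL1, SLC7A2 and IL1B are far higher in HPNE, while the values of PPP1R15A and HSPA5 lie near each other in the 2 lines.

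For several stress and sterol genes the difference between the lines did not pass. PPP1R15A changed by 2.54 in HPDE against 2.73 in HPNE (difference 0.19 ± 0.19, adjusted p = 0.44), HSPA5 by 1.29 against 1.29 (adjusted p = 0.98) and ACAT2 by -1.70 against -1.95 (adjusted p = 0.31). These p-values do not show the changes to be equal. DDIT3 rose more in HPDE (2.22 against 1.19; difference -1.03, adjusted p = 0.035), as did XBP1 (-0.46) and HERPUD1 (-0.46), and ATF3 rose more in HPNE (0.72, adjusted p = 0.019). In HPDE, where 8100 of 12223 genes passed (66.3%; 30.1% higher and 36.1% lower), 18 of the 19 ATF4 and CHOP targets tested in both lines were higher and 1 lower, and of the 22 cholesterol genes 21 were lower and 0 higher.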

How the data were processed

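RNA-seq of 24 cultures was deposited as 1 table of FPKM per gene and library, computed by the authors as reads per gene scaled to gene length and to all reads in genes, per the file headers and the values; the kit does not mark strand, per the labels' protocols. CASAVA, STAR, HTSeq, DESeq2 and hg19 are named in the submitters' processing notes, with no versions or settings. FPKM times gene length gave whole reads for 100% of values (tolerance 0.01), so depth was read from the deposited values. The 6 libraries of the comparison held 29874928 to 38213838 such reads.

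The 12 HPNE libraries were fitted together on log2(FPKM + 1) for genes with a mean of at least 1 FPKM, with limma 3.58.1 (lmFit, eBayes with trend, 8 residual degrees of freedom) in R 4.3.3. P-values were adjusted by Benjamini-Hochberg over all genes tested, with a threshold of 0.05. No design was stated, and this one follows the treatment labels. The line difference was an interaction over all 24 libraries (16 residual degrees of freedom). Near the filter, 210 genes had a mean from 1 to under 1.1 FPKM and 167 from 0.9 to under 1. The files' gene symbols are partly older names (IL8 is CXCL8).

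Genes and lists were chosen with earlier results of these data known, as were the motifs: 31 lists with 556 entries, of which 555 were found. The rule named 133 protein-coding genes. Among those whose groups did not overlap, it took the 12 largest rises and falls. From the same genes it took up to 4 members per list with the largest changes past the threshold. Overlap was not considered for the rest. These were genes apart from both controls, genes that moved as in residual medium, and the largest differences from PANC-1 EVs and between lines. Key stress genes were added whatever their values. Other list members in the text were chosen after their values were seen, and some genes the rule names are not reported here. List counts and medians are descriptions, read against the share of all genes called. Promoters came from RefSeq (GRCh38.p14), matched by symbol for 9057 of 11503 genes, and gene coordinates from the files (hg19).

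The same replicate numbers recur in each group. Deviations of same-numbered PPCL-68 EV and untreated libraries correlated at 0.492, -0.368 and 0.493, so the numbers were not taken as pairs there; for PPCL-68 and PANC-1 EVs they correlated at 0.565, 0.292 and 0.500, and a fit with the replicate block found 550 genes for that comparison in place of 629. Alternatives were a pseudocount of 0.1, no filter, a minimum of 5 FPKM, median-of-ratios size factors, limma voom on the recovered reads, a fit of only the groups compared, the replicate block and leaving out libraries. In simulated data of 11503 genes, 24 of 50 genes changed 1.5-fold were called, 41 of 50 at 2-fold, 46 of 50 at 4-fold and 49 of 50 at 8-fold. Of 11303 unchanged genes 11 were called, 6.43% of all calls. The simulated noise was independent between genes, and far fewer genes were changed than were called in the real data. No simulated library lay apart in many genes together, as real ones did, so these rates do not describe the real fit.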

Additional observations from a re-analysis of the deposited data

Results flagged for a closer look

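The response to PPCL-68 EVs was measured in 2 lines, and for 4029 genes the interaction test in limma found that the change against untreated differed between HPNE and HPDE cells. Differences below are HPNE minus HPDE on the log2(FPKM + 1) scale. The chemokines IL8 (6.98) and CXCL1 (5.88), the cytokine IL1B (4.18) and the amino acid carrier SLC7A2 (4.98) were raised more in HPNE. The repressor SNAI1 (-3.79), the zinc finger factor OSR2 (-3.19), the lipid carrier FABP3 (-2.95) and the junction protein JUP (-2.91) had more negative changes in HPNE. Among genes of the stress response DDIT3 (-1.03), XBP1 (-0.46) and HERPUD1 (-0.46) were raised less in HPNE than in HPDE, and ATF3 more (0.72). Both lines had 3 libraries a group, and groups of 3 are too small for a test of single samples far from the rest.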

How the results depend on the processing

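The count of genes differing between PPCL-68 EV and untreated cells stayed within 1.5 times 4891 under all alternatives run, from 3594 to 5100 when 1 library was left out, and 5240 without both libraries that lay apart. Genes differing by at least 1 on the log2 scale numbered 817, but 1228 with a pseudocount of 0.1, 1246 with limma voom on the recovered reads and 1227 without both libraries that lay apart (705 to 1020 with 1 library left out). For PPCL-68 against PANC-1 EVs, 629 genes became 335 with no filter on low values, 323 in a fit of only those groups, 1049 without both libraries that lay apart and 135 to 916 with 1 library left out. Residual medium against untreated gave 3044 to 6049, PPCL-68 EVs against residual medium 3099 to 5404 and the line difference 3348 to 4455 with 1 library left out. The cause of these shifts was not tested. No named gene changed direction. The balance of calls did: with size factors 2563 genes were higher and 2537 lower than untreated (2151 and 2740 otherwise), residual medium against untreated went from 2153 and 2899 to 2747 and 2504, and PPCL-68 EVs against residual medium from 2334 and 2261 to 2321 and 2512, or 2074 and 2182 without both libraries that lay apart. Of the 133 named genes, 18 lost their call with no filter, 8 without both libraries that lay apart, 3 with the replicate block, 1 each with voom, size factors and a fit of only the groups compared, and 6 to 16 with 1 library left out (16 without PPCL-68 EV replicate 3). With the replicate block 4880 genes passed, 4674 of them shared with the same direction. Under size factors the median of the mitochondrial tRNA synthetases moved from -0.02 to 0.02, and that of all genes from -0.05 to -0.01. An FPKM near 1 rests on few reads in short genes.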

Other observations

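Progenitor markers, which the comparison above does not use, summed to 28.3 to 39.7 FPKM in the untreated libraries and to 10.7 to 18.3 FPKM with PPCL-68 EVs. The ranges did not overlap, and the sum was not tested. Of the 7 markers 5 had at most 3 reads in each of these 6 libraries, and only NES and GATA6 passed the filter. These 2 went opposite ways against residual medium without its replicate 3, NES lower with PPCL-68 EVs (-1.95) and GATA6 higher (1.67). In the same setting residual medium differed from untreated by 0.615 for NES and -0.143 for GATA6. The sum therefore does not stand for each marker.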
